A study of Homo sapiens with 6 samples.

Results

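Wnt proteins are received at the cell surface by Frizzled proteins, seven-pass receptors that hold the ligand in an extracellular cysteine-rich domain, together with the single-pass co-receptors LRP5 and LRP6. The 9 genes described here encode 7 Frizzled receptors (FZD1, FZD2, FZD3, FZD4, FZD5, FZD6 and FZD7) and both co-receptors. They were taken by symbol from the 14987 genes of the deposited expression table, and all 9 were listed. The members were chosen by gene family with the measured response of these libraries to glucose deprivation in view. The lower FZD4 value after deprivation was known, so the response of FZD4 is given as a description with no test.

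When a Wnt ligand bridges a Frizzled and an LRP protein, the LRP tail is phosphorylated and recruits Axin, the complex that destroys beta-catenin is held back, and beta-catenin reaches TCF/LEF factors in the nucleus. Some Frizzled receptors also signal without LRP co-receptors, in the planar cell polarity branch. In the intestine this pathway maintains the stem cells of the crypt, and the ubiquitin ligases RNF43 and ZNRF3, which are themselves Wnt targets, remove Frizzled receptors from the surface. The line used here, HCT116, is an established human colorectal carcinoma line with a stabilising mutation of beta-catenin, so that part of its Wnt output does not need the receptors.

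The study asked how YAP, the coactivator restrained by the Hippo kinases, takes part in the gene expression that follows loss of glucose. Messenger RNA was sequenced from 6 libraries of HCT116 cells. Cells labelled wild type (NC) and YAP knockdown cells (construct shYAP1 or shYAP3) each gave 1 library from control medium and 1 from medium without glucose after 6 h. The labels name no replicate cultures and no vector or promoter of the hairpins, and whether NC cells carry a control hairpin is not given in the sources used here.

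The reads listed per library lay between 16912634 and 22161075, and the members had between 35 reads (FZD4, shYAP3 deprived) and 1630 reads (FZD6, shYAP1 control). Values are the authors' normalized values, in which 1 read stands for 0.0406 to 0.0693. In control medium YAP1, the gene targeted by the hairpins, was at 188 in NC cells, at 35.7 with shYAP1 and at 38.2 with shYAP3, and after deprivation at 154, 20.3 and 18.2. In each library 0.392% to 0.614% of the listed reads lay on the 8 listed of 11 colorectal epithelial markers. Fibroblast, leukocyte and endothelial markers (3 of 7, 5 of 7 and 3 of 6 listed) took at most 0.00123%, 0.00344% and 0.000746%. The NC library of a medium has no replicate and shares the spread of the others, and the p-values measure only the spread between these libraries, which may be technical.

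The promoters of 3 Frizzled genes are shown because their transcripts differed in how far they lay below control after deprivation: FZD4 the furthest, FZD1 less far, while the deprived and control values of FZD5 overlapped. Of the 9 members, 4 had an entry in the promoter table used (FZD1, FZD4, FZD5 and LRP5). Sequences are from RefSeq on GRCh38.p14, 5′ to 3′ on the strand of the gene. Those of FZD4 and FZD5 end at the annotated start of transcription. The last 69 of the 250 upstream bases of FZD1 lie within another annotated transcript and were left out. The FZD1 sequence thus ends 69 bases short of its annotated start. FZD4 is chr11:86955396-86955645 on the minus strand, FZD1 is chr7:91264183-91264363 on the plus strand and FZD5 is chr2:207769907-207770156 on the minus strand. Capitals mark GC boxes (GGGCGG) and CCAAT boxes (CCAAT) read on either strand.
FZD4: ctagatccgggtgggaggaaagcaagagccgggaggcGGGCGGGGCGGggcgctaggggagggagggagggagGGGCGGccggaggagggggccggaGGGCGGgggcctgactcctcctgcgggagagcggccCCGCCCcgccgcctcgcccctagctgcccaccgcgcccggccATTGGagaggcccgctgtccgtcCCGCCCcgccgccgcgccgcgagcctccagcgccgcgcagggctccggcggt
FZD1: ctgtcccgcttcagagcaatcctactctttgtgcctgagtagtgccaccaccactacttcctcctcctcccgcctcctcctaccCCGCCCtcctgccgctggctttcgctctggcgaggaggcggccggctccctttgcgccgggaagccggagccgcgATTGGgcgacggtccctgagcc
FZD5: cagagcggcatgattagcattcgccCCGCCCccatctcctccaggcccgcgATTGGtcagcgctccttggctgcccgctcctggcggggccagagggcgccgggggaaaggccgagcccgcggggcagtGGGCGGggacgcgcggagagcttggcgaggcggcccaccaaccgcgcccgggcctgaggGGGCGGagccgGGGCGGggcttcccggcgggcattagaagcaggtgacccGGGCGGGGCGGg

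The promoters are rich in G and C, at 80.8% for FZD4, 67.4% for FZD1 and 76.8% for FZD5. FZD4 and FZD5 each held 6 GC boxes and 1 CCAAT box in 250 bases, and FZD1 held 1 of each in the 181 bases shown. Among the 250 upstream bases of all 35116 promoters of the table, 42.6% held a GC box and 32.0% a CCAAT box. The 4 matched members held no TEAD element (CATTCC, in 11.9% of promoters), no TCF/LEF element (CTTTGA, 11.2%), no E box (CACGTG, 6.34%), no ATF4 composite element (TGATGNAAN, 3.13%) and no TATA box (TATAAA, 10.7%) in this window, on either strand. For FZD1 these counts cover only the 181 bases shown, not the 69 nearest the start. Whether any of these elements bears on the response was not tested.

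FZD4 (ENSG00000174804), a Frizzled that also serves as the receptor of the retinal vessel ligand norrin, was the member with the largest difference between media. In control medium its value was 12.2 in NC cells, 14.3 with shYAP1 and 12.0 with shYAP3. After 6 h without glucose it was 2.98, 3.31 and 2.43 in the same order. All 3 deprived libraries lay far below all 3 control libraries, and the mean went from 12.8 ± 1.29 to 2.91 ± 0.447 (SD, n = 3), which is 22.6% of the control mean. On the log2(value + 1) scale, used for every difference below and understating changes of low genes, the difference was -1.73 in NC cells, -1.83 with shYAP1 and -1.92 with shYAP3, with a fitted value of -1.83 (SE 0.16). The reads behind it numbered 264 to 353 in control medium and 35 to 57 after deprivation.

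The exons of FZD4 overlap those of PRSS23, a protease gene on the opposite strand, and the strand setting of the counting is not given in the sources used here, so reads of the pair may not be told apart. PRSS23 was listed with 65 to 108 reads in control medium and 19 to 38 after deprivation, fewer than FZD4 in every library. Removing the trend of each library on transcript length and GC content left the FZD4 difference at -1.56. Because these are bulk libraries, fewer cells with a transcript and less RNA per cell cannot be told apart, here and below.

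FZD1 (ENSG00000157240) and FZD7 (ENSG00000155760), 1-exon genes whose products are close relatives and bind many canonical Wnts, both fell. FZD1 was at 8.75, 6.82 and 8.54 (NC, shYAP1 and shYAP3 in this order) in control medium, then at 3.78, 5.05 and 2.98 after deprivation. The groups did not overlap; the fitted difference was -0.89 (SE 0.19, limma adjusted p = 0.011). FZD7, the Frizzled most often linked with intestinal stem cells, was at 17.5, 16.3 and 13.3 in control medium, then at 8.73, 12.8 and 7.49 after deprivation. Its groups were separated only narrowly, by the shYAP3 control and the shYAP1 deprived library, and the fitted difference was -0.67 (SE 0.21, limma adjusted p = 0.037). In both genes the shYAP1 cells showed the smallest difference between media, -0.37 for FZD1 and -0.32 for FZD7. With the trends of each library on length and GC content removed, FZD1 was at -0.59 and still passed. With no filter on low values FZD7 lost its call (limma adjusted p = 0.069).

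FZD2 (ENSG00000180340), the remaining 1-exon member and a receptor of WNT5A as well as of canonical ligands, was at 11.4, 7.91 and 9.72 in control medium, then at 5.80, 4.94 and 6.79 after deprivation. Every line was lower without glucose, and the fitted difference was -0.64 (SE 0.17, limma adjusted p = 0.024). FZD3 (ENSG00000104290), known for axon guidance and planar polarity, was at 40.6, 48.1 and 39.5 in control medium, then at 24.1, 26.3 and 23.9 after deprivation. Relative to their mean, its deprived values were the most alike among the members (24.8 ± 1.30, SD, n = 3, or 57.9% of the control mean). The fitted difference of -0.76 (SE 0.14) had the lowest adjusted p of the 8 tested members (limma, 0.0059), and the lines differed little, from -0.70 to -0.85.

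The co-receptors fell together. LRP5 (ENSG00000162337) was at 68.4, 58.2 and 64.1 in control medium, then at 54.8, 41.8 and 32.2 after deprivation. LRP6 (ENSG00000070018), the co-receptor with the stronger effect on beta-catenin in most systems, was at 55.1, 56.4 and 57.1 in control medium, then at 47.2, 37.5 and 28.2 after deprivation. In both genes the deprived libraries ran in the order NC, shYAP1, shYAP3 from high to low and did not overlap the control libraries. The fitted differences were -0.58 for LRP5 (SE 0.16, limma adjusted p = 0.023) and -0.60 for LRP6 (SE 0.17, limma adjusted p = 0.028). The ratio of the LRP6 value to the LRP5 value stayed between 0.805 and 0.969 in all 6 libraries. With the trends on length and GC content removed, LRP5 no longer passed (-0.25, limma adjusted p = 0.091) and LRP6 did. LRP5L, a partial near-copy of LRP5 that could take up some of its reads, was at 5.36 to 6.41 in control medium, then at 3.81 to 5.27 after deprivation, below the LRP5 value in every library.

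FZD5 (ENSG00000163251), a canonical Wnt receptor of the intestinal epithelium, and FZD6 (ENSG00000164930), a planar polarity receptor, did not pass the test. FZD5 was at 15.9, 14.1 and 10.2 in control medium, then at 12.2, 12.5 and 4.78 after deprivation. The deprived NC and shYAP1 libraries lay above the shYAP3 control library, so that the groups overlapped. The fitted difference was -0.49 (95% interval -1.13 to 0.15, limma adjusted p = 0.21), and single libraries and settings moved it in both directions. It was -0.82 and passed without the shYAP1 deprived library (limma adjusted p = 0.016), and -0.77 without passing when scaled to listed reads. It was -0.12 without the shYAP3 deprived library (limma adjusted p = 0.57) and -0.14 with the length and GC trends removed (limma adjusted p = 0.63). FZD6 was at 58.3, 66.1 and 66.9 in control medium, then at 65.6, 66.2 and 103 after deprivation. A single library, shYAP3 deprived, stood above the other 5. The fitted difference of 0.26 (95% interval -0.13 to 0.65, limma adjusted p = 0.27) turned to -0.04 when each library was scaled to its listed reads and to -0.03 with the length and GC trends removed. It was 0.07 without the shYAP3 deprived and 0.43 without the shYAP1 deprived library.

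**Figure D1:**
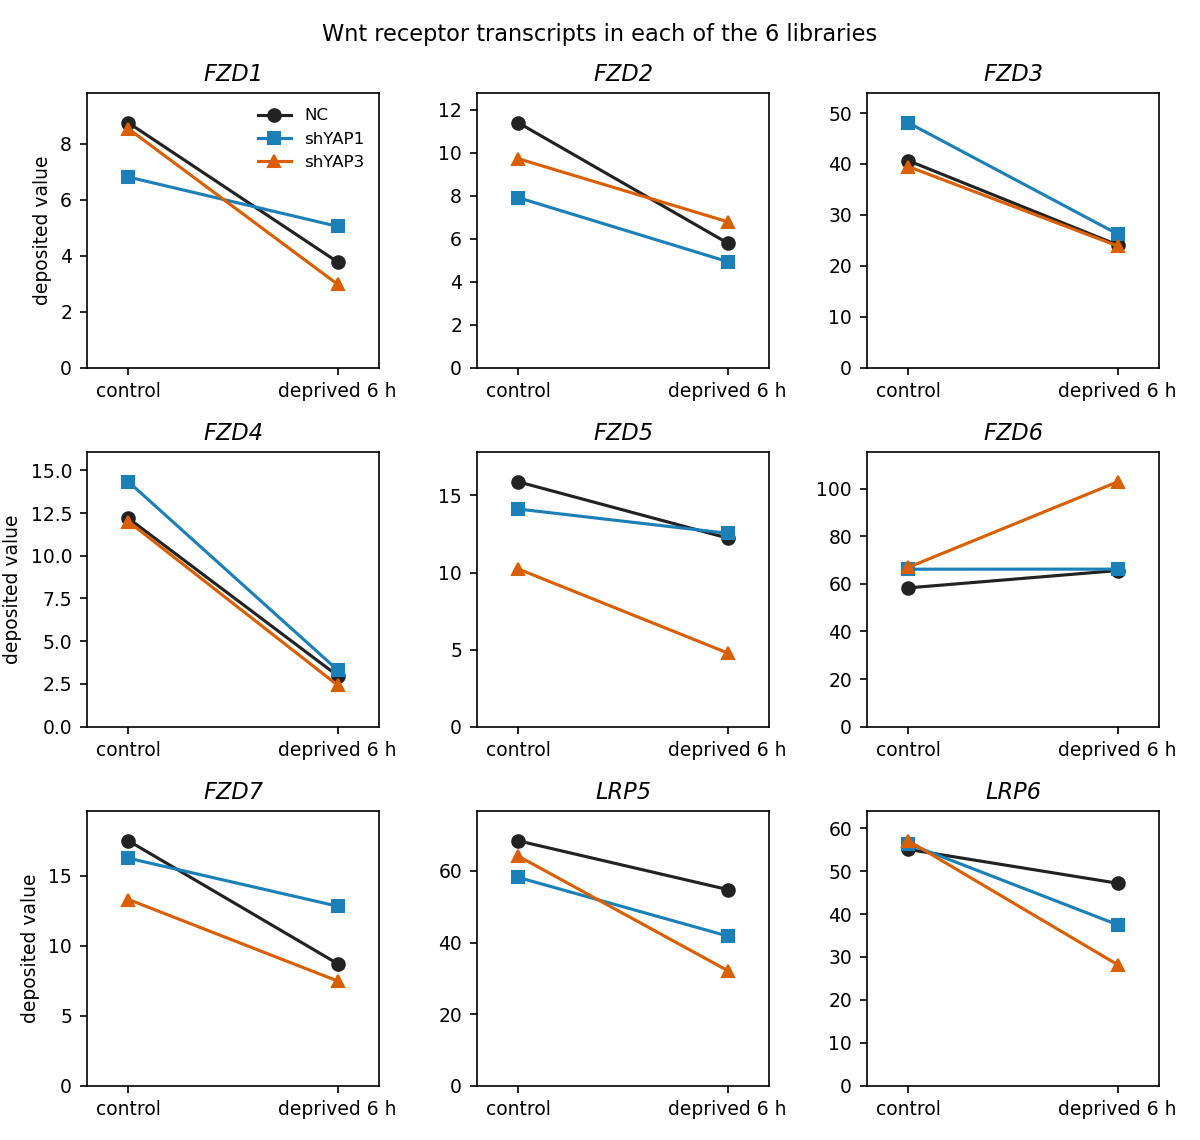
Deposited normalized value (y axis, from 0, a separate scale for each gene) of each member by medium (x axis: control, or deprived of glucose for 6 h); a line joins the 2 libraries of NC, shYAP1 or shYAP3 cells. FZD4 goes from 12.0 to 14.3 down to 2.43 to 3.31 in all 3 lines, LRP5 and LRP6 fan out after deprivation, and FZD6 is higher mainly in the shYAP3 deprived library (103).

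In all, 6 of the 8 tested members fell after deprivation (FZD1, FZD2, FZD3, FZD7, LRP5 and LRP6) and 0 rose. Over the 12263 genes tested, 15.6% were called lower, 16.5% higher and 32.1% in either direction by limma at an adjusted p of 0.05. The median difference of the 8 members was -0.62, against 0.05 over all genes, and 7 of the 8 were negative, against 46.2% of all genes. In 7 of the 9 members, FZD4 included, every deprived library lay below every control library, and in 0 above; 23.8% of all genes lay wholly below and 26.8% wholly above. The members were chosen with results known, so these shares describe them and test nothing about them as a set.

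The count depended on single libraries, and so did that of all genes. It was 2 without the NC control or without the NC deprived library (FZD3 and LRP6 in each), 1 without the shYAP1 control (FZD1) and 1 without the shYAP3 control library (FZD3). The share of all genes called lower in these 4 fits was 5.9%, 5.9%, 4.79% and 5.0%. It was 7 without the shYAP1 deprived and 6 without the shYAP3 deprived library, where 19.4% and 19.8% of all genes were called lower. Scaling each library to its listed reads moved the median of all genes from 0.05 to -0.24 and the calls over all genes from 2018 higher and 1918 lower to 749 and 3802. The median of the 8 members was then -0.90, with LRP5 at -0.89 and LRP6 at -0.90, and the same 6 members passed. edgeR's quasi-likelihood test and DESeq2 on the recovered reads also called these 6 at an adjusted p of 0.05.

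**Figure D2:**
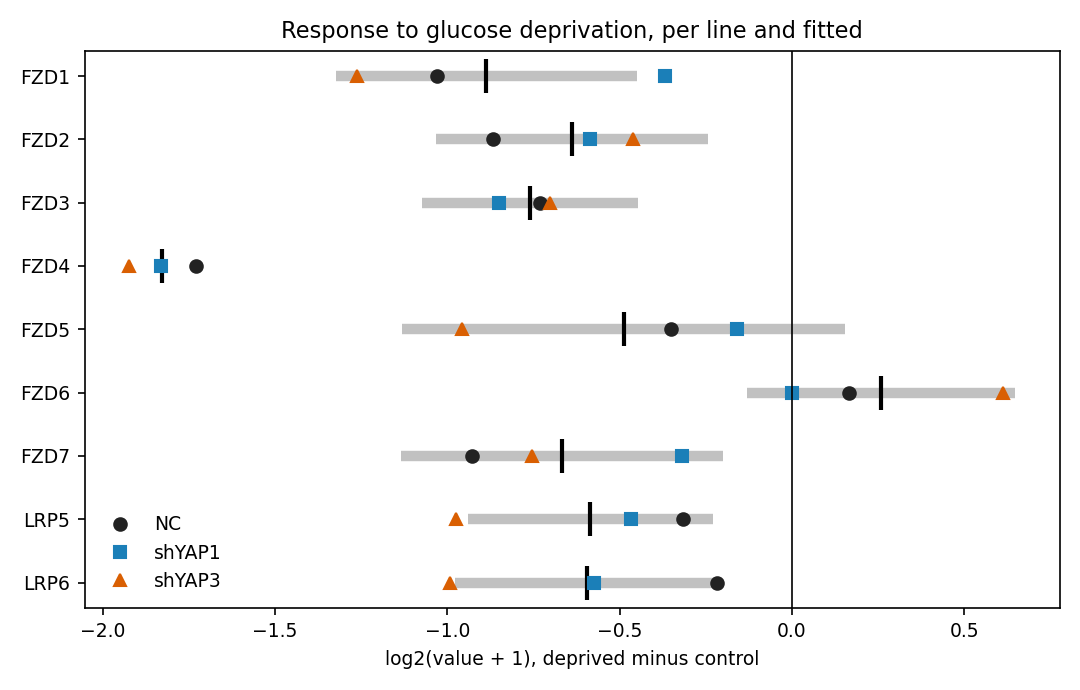
Difference between deprived and control medium on the log2(value + 1) scale (x axis) for each member (y axis): symbols are the 3 lines, the black tick the value fitted over all 6 libraries and the grey bar its 95% interval, left out for FZD4, which was not tested. The symbols of 8 members lie below 0 in every line; FZD6 lies at 0.00 to 0.61, and its fitted value turns negative under scaling to listed reads.

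Transcript length ran along with the response in these libraries. The longest transcripts of the members spanned 2112 bases (FZD2) to 13740 bases (FZD3), against a median of 3725 over the genes with a length. By deciles of transcript length, the median response was 0.34 in the shortest genes and -0.19 in the longest. FZD3 and LRP6 belong to the longest decile, FZD1, FZD4 and FZD5 to decile 9 (median -0.14), LRP5 to decile 8 (-0.10), FZD6 and FZD7 to decile 6 (0.01) and FZD2 to decile 2 (0.21). Within its own decile the response of FZD2 lay at percentile 3.9, FZD1 at 7.1, FZD7 at 8.4 and FZD3 at 13.4. LRP5 lay at 16.4, LRP6 at 21.8, FZD5 at 25.1 and FZD6 at 70.4. The 6 of these called lower were bound by that call to lie below the decile median. The spread by length was widest in the shYAP3 deprived library, whose median deviation was 0.44 in the shortest and -0.29 in the longest decile. With the trends removed, 5 of the 8 tested members were called lower (LRP5 was not), next to 17.2% of all genes. The part of length in the response was not otherwise tested.

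FZD1, FZD2 and FZD7 have a single exon, as have 235 protein-coding genes tested, whose median response was -0.24. The 3′ untranslated regions of the longest transcripts ran from 184 bases (FZD2) and 205 bases (LRP5) to 5463 bases (FZD4) and 11256 bases (FZD3), with a median of 1608 over all genes. The AU-rich pentamer ATTTA stood there 0 times per kb in FZD2, 1.46 in FZD4, 2.41 in FZD7, 2.96 in FZD5, 3.55 in FZD1, 3.92 in LRP6, 4.0 in FZD3, 5.19 in FZD6 and 9.76 in the short region of LRP5, against a median of 1.77 over the genes tested. Of the 9 members, 7 thus lay above that median, and a relation to the response was not tested.

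Levels can be set against each other only per length, and were computed as RPKM, reads per kb of the longest transcript scaled to the listed reads. In control medium the order of the mean levels was FZD6 (19.3 ± 1.82), LRP5 (14.1 ± 1.35), LRP6 (6.41 ± 0.312), FZD2 (5.24 ± 0.983), FZD7 (4.64 ± 0.512), FZD3 (3.55 ± 0.299), FZD5 (2.28 ± 0.434), FZD4 (1.98 ± 0.154) and FZD1 (1.32 ± 0.203; SD, n = 3 throughout). The neighbours FZD2 and FZD7, and FZD5 and FZD4, did not differ beyond their spread. After deprivation FZD6 stood at 18.8 ± 3.74, LRP5 at 7.79 ± 2.56 and LRP6 at 3.51 ± 1.11 (SD, n = 3). FZD4 went from next to last to last, at 0.366 ± 0.0750, below FZD1 at 0.526 ± 0.158 (SD, n = 3). The order depends on which transcript is expressed: per kb of coding length FZD3 came right after FZD6 in control medium (24.4 against 34.4), ahead of LRP5 (15.0).

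FZD6 made up a larger share of the Frizzled transcripts after deprivation. On this per-length scale the 7 Frizzled genes summed to 38.3 ± 0.800 in control medium and 27.7 ± 2.27 after deprivation (SD, n = 3). Without FZD6 the sum went from 19.0 ± 1.30 to 8.82 ± 1.49. The share of FZD6 was 45.9%, 51.4% and 53.6% in control medium, then 64.5%, 62.2% and 76.4% after deprivation. The groups did not overlap. Per kb of coding length the mean share was lower but moved the same way, from 35.0% ± 3.14 to 53.9% ± 9.75 (SD, n = 3). This share does not depend on how the libraries were scaled, and it holds the values of FZD4, known when the members were chosen, so it has no test. BAALC-AS1, a gene on the opposite strand, overlaps FZD6 and was not listed. With the strand setting not given, its reads may be counted as FZD6.

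**Figure D3:**
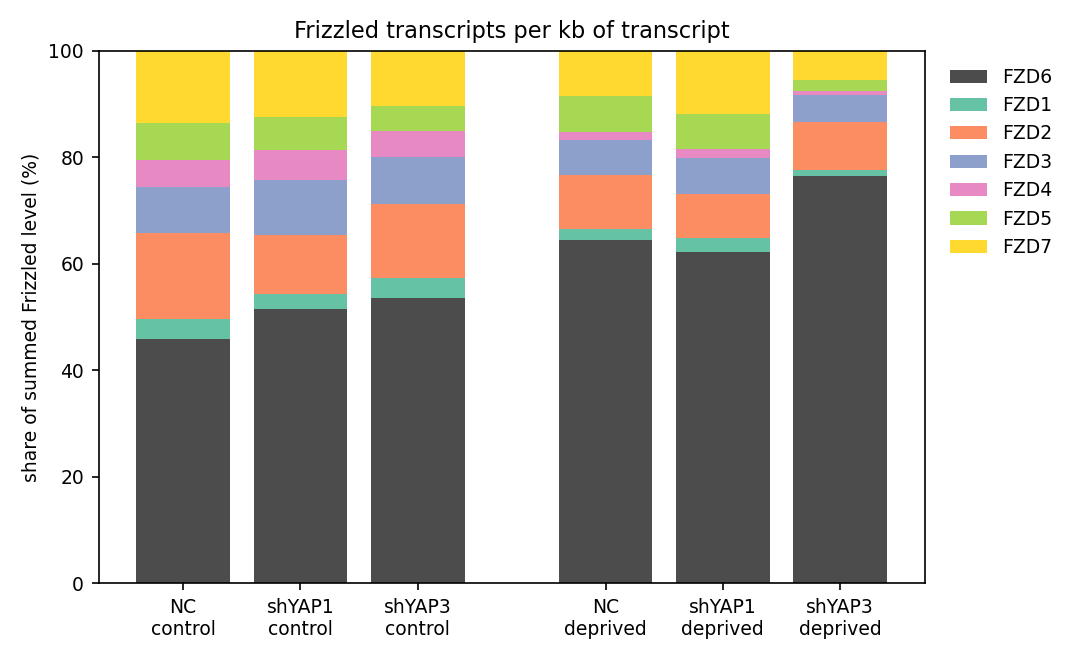
Share of each of the 7 Frizzled genes in their summed level per kb of longest transcript (y axis, percent) in each of the 6 libraries (x axis). The dark FZD6 segment goes from 45.9% to 53.6% in control medium to 62.2% to 76.4% after deprivation, and the FZD4 segment goes from 4.92% to 5.72% to 0.926% to 1.60%.

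The other Frizzled genes listed were close to the limit of detection. FZD8 had 0 to 3 reads per library, and 3 reads, the limit that a count of 0 allows, stand for 0.122 to 0.208, for counting error only. FZD9 had 4 to 18 reads, at values of 0.277 to 0.798. Neither passed the filter, a value of 1 or more in 2 or more libraries, which all 9 members passed.

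Over both media, knockdown of YAP was not followed by a called change in any member (0 of 9 by limma; lowest adjusted p 0.58). Over all genes 0.00815% were called, 1 gene and lower, with 0% higher, and 898 genes had an unadjusted p under 0.05; for the members that count was 0. The median difference between shYAP and NC cells was -0.07 for the members and -0.01 for all genes. LRP5 had the lowest p (difference -0.36, 95% interval -0.74 to 0.01, limma adjusted p = 0.58). The widest interval was that of FZD5 (-0.48, -1.16 to 0.20). Over the 9 members the intervals ran from -1.16 to 0.67, so a missing call does not show that the lines are alike.

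FZD6 was the only member whose 4 shYAP libraries (66.1 to 103) all lay above both NC libraries (58.3 and 65.6), as did 4.83% of all genes, and no member lay wholly below, as did 6.04%. The lowest shYAP value exceeded the higher NC value by less than 1, the fitted difference was 0.26 (95% interval -0.16 to 0.67, limma adjusted p = 0.61), and in RPKM the shYAP1 deprived library lay below both NC libraries (16.4 against 17.0 and 17.4).

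The response itself was not called different between shYAP and NC cells for any member (0 of 9 by limma), as for 0% of all genes in either direction; 111 genes had an unadjusted p under 0.05, and edgeR called 0 and DESeq2 1. The estimates leaned lower for LRP6 (-0.56, 95% interval -1.37 to 0.24) and LRP5 (-0.41, -1.21 to 0.40) and higher for FZD7 (0.39, -0.72 to 1.50). For FZD4 the difference was -0.15 (95% interval -1.04 to 0.74), next to responses of -1.73 to -1.92 in the 3 lines. The shYAP1 and shYAP3 responses of LRP6, -0.58 and -0.99, were both further from 0 than that of NC cells, -0.22. Without the shYAP1 deprived library the estimates were -0.82 for FZD5, -0.59 for LRP5 and -0.76 for LRP6. In that fit only the shYAP control libraries repeat a group, so its spread comes from that pair alone. Its shYAP response also rests on the shYAP3 deprived library, the one with the widest spread by transcript length.

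The knockdown lines were compared with each other over both media, since they share the target but not the hairpin. No member was called (0 of 9 by limma), nor was any other gene (0%); 843 genes had an unadjusted p under 0.05, and edgeR called 0 and DESeq2 1. FZD5 was lower in shYAP3 than in shYAP1 cells in both media (10.2 against 14.1, and 4.78 against 12.5), with a difference of -0.83 (SE 0.22, unadjusted p = 0.0028, limma adjusted p = 0.62). FZD7 was lower in shYAP3 cells as well, 13.3 against 16.3 and 7.49 against 12.8 (-0.49, limma adjusted p = 0.68). The calls of FZD5, FZD6, FZD7 and LRP6 changed without the shYAP3 control library. That fit holds 1 shYAP3 library, and its spread rests only on how far the NC and shYAP1 responses differ. All of these comparisons use the same 6 libraries, so their values are not independent of each other.

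**Figure D4:**
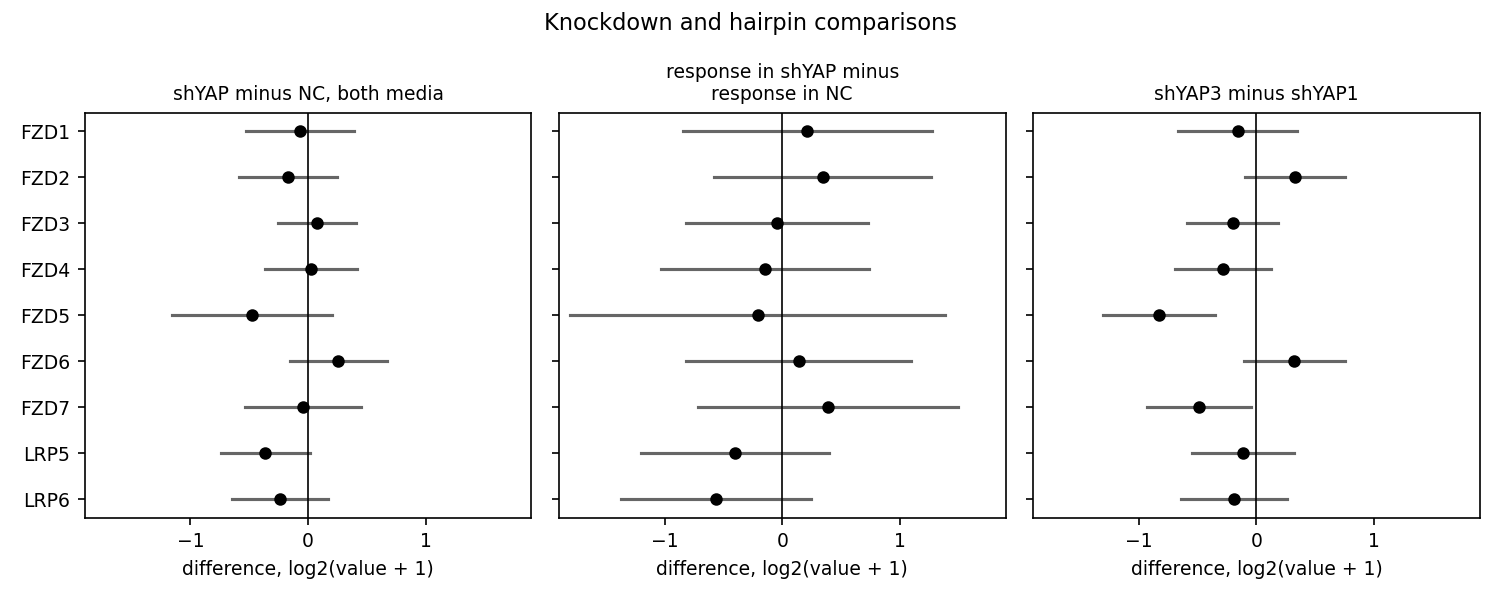
Fitted differences on the log2(value + 1) scale (x axis) with 95% intervals (bars) for each member (y axis): shYAP minus NC over both media, response in shYAP minus response in NC cells, and shYAP3 minus shYAP1. All bars of the first and middle panels cross 0; in the last, those of FZD5 (-0.83) and FZD7 (-0.49) do not, though neither passed after adjustment.

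By profile over the 6 libraries, the members nearest to each other were LRP5 and LRP6. The root mean square difference of their centred log2(value + 1) values was 0.08, and of 10435 genes with a mean value of at least 5, LRP6 was number 57 in likeness to LRP5. The nearest member to FZD1 was FZD7 and the reverse (0.20), and FZD7 was also nearest to FZD3 (0.21) and FZD5 (0.31). FZD3 was nearest to FZD2 (0.27). FZD1 was nearest to FZD4, at a larger difference (0.51). By rank it was number 365 in likeness to FZD4, much as FZD7 was to FZD1 (number 372). FZD6 stood apart, with FZD2 nearest (0.50) but only number 8277 in likeness to it.

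Outside the family, the 5 genes most like FZD4 by this measure were NAT8L (0.11), PCF11 (0.12), GPR157 (0.12), AMER1 (0.13) and PPFIA4 (0.14). AMER1, a scaffold of the beta-catenin destruction complex, was at 12.7, 12.8 and 12.6 in control medium, then at 3.83, 3.78 and 2.84 after deprivation. PCF11, a factor of transcript cleavage and termination, was at 60.0, 64.3 and 66.8 and then at 19.0, 20.3 and 17.7. In both genes, as in FZD4, every deprived library lay well below every control library. Both were picked for their likeness to FZD4, so this follows from the choice. Of all genes, 23.8% lay wholly below.

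The rest of the pathway was read from 9 lists of Wnt components, 77 genes of which were tested. Of these, 22 were called lower (28.6%) and 7 higher, with a median of -0.20, next to 15.6% lower and 16.5% higher over all genes. With the trends on length and GC content removed, 19 were called lower and 13 higher, with a median of -0.09. Over all genes that fit called 17.2% lower and 20.5% higher. Of the 77 genes, 23 were called both with and without the trends. Scaled to listed reads, 37 were called lower and 1 higher, next to 31% lower and 6.11% higher over all genes. The lists were drawn up with earlier results of these data known. Genes named below are the 2 with the smallest p of each list and the called genes of a direction where these were 5 or fewer. RNF43, WNT16 and CTNNB1 were added after their values were seen.

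Among 10 Wnt ligands, 3 fell and 0 rose, next to 15.6% lower and 16.5% higher over all genes. These were WNT3A (-0.80, limma adjusted p = 0.014), WNT10B (-0.48, 0.035) and WNT2B (-0.67, 0.037). WNT3A and WNT2B were low, with means of 4.02 and 4.30 in control medium and 1.91 and 2.41 after deprivation. WNT16, the tested ligand with the highest value, did not pass (mean 70.1, then 80.8, difference 0.20, limma adjusted p = 0.24). WNT2B lost its call with the length and GC trends removed (-0.38, limma adjusted p = 0.088). Of 5 genes of ligand secretion only TMED5, a cargo receptor, rose (0.63, limma adjusted p = 0.013). Of 7 alternative receptors 3 fell and 0 rose: MCAM (-0.68), ROR2 (-0.66), a receptor kinase for WNT5A, and PTK7 (-0.51), a polarity co-receptor. With the trends removed PTK7 did not pass (-0.18, limma adjusted p = 0.16), and MCAM and ROR2 stood at -0.40 and -0.41 and did. Smoothened (SMO), the Frizzled-class receptor of the Hedgehog pathway and not a Wnt receptor, also fell (-0.84, limma adjusted p = 0.0069).

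Genes that set the number of Frizzled receptors at the surface moved in both directions. ZNRF3 was at 32.9, 27.7 and 27.9 in control medium, then at 17.6, 16.9 and 8.39 after deprivation (-1.06, limma adjusted p = 0.010, or -0.65 with the trends removed). LGR4, an R-spondin receptor that holds ZNRF3 and RNF43 back, fell by 0.76 on the log2 scale (limma adjusted p = 0.019). RNF43 had a difference of -0.88 and did not pass (limma adjusted p = 0.054, or 0.015 scaled to listed reads), with shYAP3 cells low in both media (60.1 and 25.0, against 105 and 59.5 in NC cells). USP8, a deubiquitinase that returns Frizzled receptors to the surface, rose by 0.56 (limma adjusted p = 0.037), but under scaling to listed reads did not pass. Of 4 tested genes in this list, 2 fell and 1 rose, next to 15.6% lower and 16.5% higher over all genes.

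DKK1, the secreted antagonist that binds LRP5 and LRP6, rose the most of the pathway. It was at 115, 277 and 200 in control medium, then at 548, 727 and 938 after deprivation. The groups did not overlap, and the difference was 1.95 (limma adjusted p = 0.00037), the only rise of a pathway gene that also passed under scaling to listed reads (1.65). KREMEN1, the receptor that works with DKK1 in removing LRP6, fell (-0.79, limma adjusted p = 0.023, or -0.41 with the trends removed).

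Of 12 genes listed under Dishevelled and receptor kinases, 3 passed, and over all genes 15.6% were called lower and 16.5% higher. GPRC5B fell (-1.46), while CAPRIN2 (0.67) and CSNK1G3 (0.44), which promote LRP6 phosphorylation, rose. Neither GPRC5B nor CAPRIN2 is a Dishevelled protein or a kinase. With the trends removed 4 of this list were called higher and CSNK1G3 was not among them (0.20, limma adjusted p = 0.19). In the destruction complex, 3 of 13 fell (AMER1 -1.62; AXIN2 -1.26; BTRC -0.41) and CSNK1A1, the priming kinase of beta-catenin, rose (0.56). With the trends removed 2 fell and 4 rose, and BTRC did not pass (-0.23, limma adjusted p = 0.087). Over all genes that fit called 17.2% lower and 20.5% higher. AXIN2, a widely used Wnt target, was at 38.6, 34.8 and 35.7 in control medium, then at 18.3, 15.3 and 11.1 after deprivation. Of 12 nuclear factors 3 fell, PYGO2 (-1.09), BCL9 (-1.16) and TLE1 (-0.70), while beta-catenin itself, CTNNB1, did not pass (-0.16, limma adjusted p = 0.41), though it did scaled to listed reads (-0.47, limma adjusted p = 0.018).

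In the planar polarity branch, to which FZD3 and FZD6 belong, 6 of 10 genes fell, led by VANGL1 (-1.28) and CELSR2 (-1.35), and 1, the formin DAAM1, rose (0.75). With the trends removed 4 fell and 2 rose; VANGL2 (-0.27) and CELSR3 (-0.07) lost their calls, and CELSR2 stood at -0.82. Of 9 other genes of the lipoprotein receptor family to which LRP5 and LRP6 belong, 4 fell and 0 rose: LRP8 (-0.91), LRP3 (-0.61), LRP4 (-0.74) and LRP1 (-0.79). With the trends removed LRP4 (-0.28) and LRP1 (-0.24) did not pass, while LRP8 and LRP3 did, at -0.59 and -0.39, and LRP1B rose (0.49). Beside both lists stand 15.6% lower and 16.5% higher over all genes, or 17.2% and 20.5% with the trends removed. The lipoprotein receptor list was not part of the 9 lists counted together. The calls of DKK1, GPRC5B, AMER1, AXIN2, PYGO2, BCL9, VANGL1 and CELSR2 held in all 6 fits that left out 1 library. Those of the other named genes held in 1 to 5 of the 6. In the knockdown comparison 0 genes of these lists were called, next to 0.00815% of all genes, which is 1 gene.

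**Figure D5:**
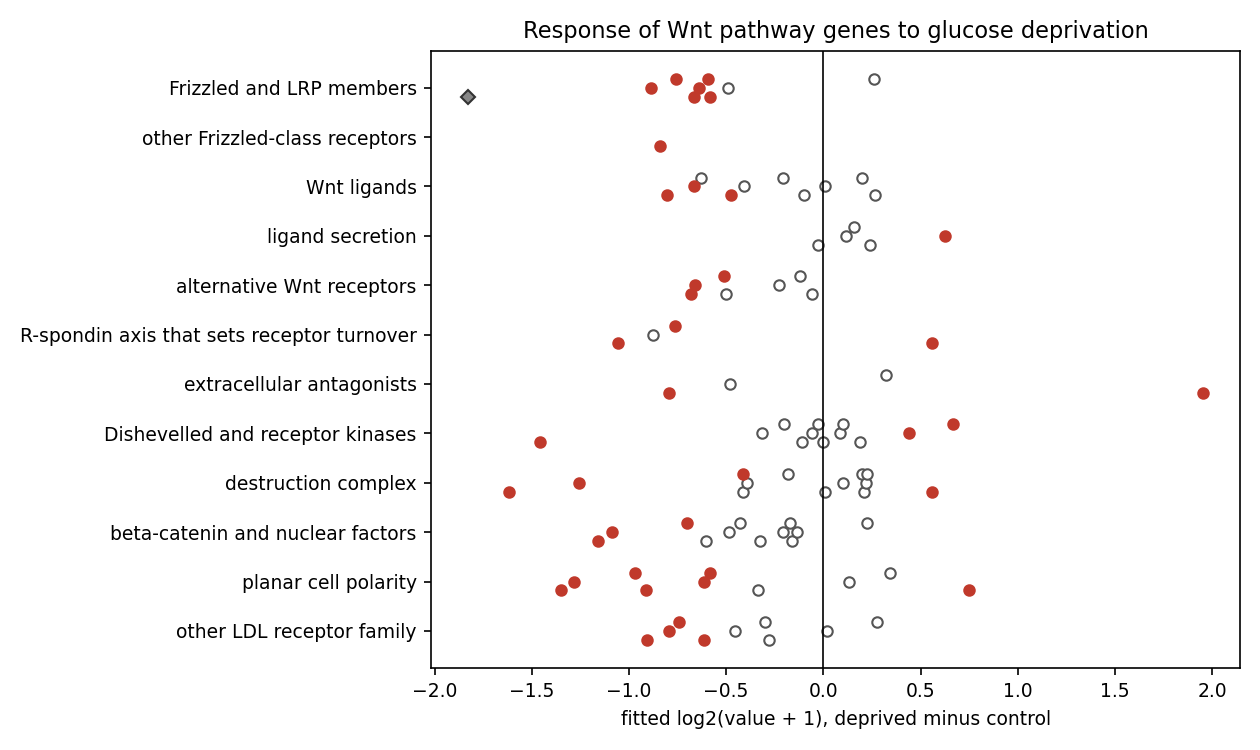
Fitted difference between deprived and control medium on the log2(value + 1) scale (x axis) for each tested gene of the Wnt pathway lists (y axis): filled points passed at a limma adjusted p of 0.05, open points did not, and the diamond is FZD4, which was not tested. Of the points in the list rows, DKK1 stands furthest to the right at 1.95 and FZD4 furthest to the left at -1.83.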

How the data were processed

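Polyadenylated RNA of 6 HCT116 libraries was sequenced, per the labels' protocols. The deposited table gives each gene a normalized signal; how the authors scaled it, the read counter, the annotation and the strand setting are not given in the sources used here. Bowtie2, BWA and hg19 are named in the submitters' processing notes, with no role or version. Divided by the worth of a single read, 100% of the values were whole to within 0.01 read, so read counts were recovered.

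Differences were fitted by limma 3.58.1 under R 4.3.3, allowing for a mean-variance trend, on log2(value + 1). The fit held the 12263 genes that reached 1 in 2 or more libraries. P-values were adjusted over all of them by the Benjamini-Hochberg method, with calls at 0.05. The response and the knockdown came from a model of genotype and medium, the difference of responses from 1 mean per genotype and medium, and shYAP3 against shYAP1 from a model of line and medium. edgeR 4.0.16 and DESeq2 1.42.0 on recovered reads were alternatives. The code was tested on simulated data. Transcript lengths and GC content are from GENCODE v29 on GRCh38, matched for 98.0% of the genes, and promoters from RefSeq.

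The lines pair the libraries across media, since the same line was used in both. Deviations of a line's libraries from the mean of their medium correlated at 0.46 (NC), 0.01 (shYAP1) and 0.33 (shYAP3) over 12263 genes. These deviations include the difference between NC and shYAP cells. Alternatives were other scalings, pseudocount 0.1, no filter, no trend, removed length and GC trends, the line as a block, and each library left out. The members, lists and tests were chosen with earlier results of these data known. All 9 members were named; in the pathway lists the 2 genes with the smallest p, or a count of 5 or fewer, and for FZD4 the 5 nearest profiles. FZD10 was not among the listed genes.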

Additional observations from a re-analysis of the deposited data

How the results depend on the processing

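Each line and medium had 1 library, so single libraries carried many calls: of 8 tested members, 1 to 7 were called lower in the response when 1 library was left out, 0 to 3 of 9 in the difference of responses and 0 to 4 of 9 between shYAP3 and shYAP1. Over all genes these fits called 1086 to 5306 in the response (3936 with all libraries), 1 to 2735 in the difference of responses (0) and 1 to 3816 between shYAP3 and shYAP1 (0); the knockdown calls ran from 0 to 5, with 7 by DESeq2 (1 with all libraries by limma). The difference of responses could not be fitted without either NC library. Without a shYAP library, its spread came only from the shYAP pair of the other medium. With the line as replicate block the response calls stayed at 6 of 8 members (all genes 4453 against 3936) and the difference at 0 of 9 (all genes 4 against 0); the block changed no call of a member.

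Some signs turned, none of them of a called difference. In the response, FZD6 was -0.0446 scaled to listed reads and -0.0271 with length and GC trends removed. Removing these trends turned the knockdown difference of FZD1 (0.1024), FZD3 (-0.1077) and FZD7 (0.0763), the difference of responses of FZD3 (0.2934), FZD4 (0.0602) and FZD5 (0.0017), and shYAP3 against shYAP1 for LRP5 (0.1142). Scaling to listed reads turned the knockdown difference of FZD4 (-0.0108) and the difference of responses of FZD6 (-0.0206).

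Leaving out 1 library in turn gave ranges that crossed 0 for differences that were not called with all 6 libraries. For the knockdown they ran from -0.2133 to 0.0459 (FZD1), -0.3424 to 0.0004 (FZD2), -0.0505 to 0.1053 (FZD4), -0.2354 to 0.1558 (FZD7) and -0.5229 to 0.0419 (LRP6). For the difference of responses they ran from -0.0878 to 0.5169 (FZD1), -0.183 to 0.0945 (FZD3), -0.314 to 0.0174 (FZD4), -0.8209 to 0.4071 (FZD5) and -0.1748 to 0.4534 (FZD6). For shYAP3 against shYAP1 they ran from -0.5468 to 0.2301 (FZD1), -0.4067 to 0.176 (LRP5) and -0.4883 to 0.1062 (LRP6).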
